A study of Mus musculus with 4 samples.

Results

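The complement genes described here were C1qa, C1qb, C1qc, C2, C4b, C3, Cfb, Cfi and Cd55, 9 of the 56748 genes in the deposited count table, taken by gene name. They were measured by bulk RNA-seq of the small intestine (SI) in p53+/+ (WT) and p53-/- mice. The SI was taken 1 day after total-body irradiation (TBI) with 12 Gy from a Cs-137 γ-source, with 2 libraries per genotype, named 7 and 8 (p53+/+) and 9 and 10 (p53-/-) by their columns. The p53-/- mice lacked p53 in every cell of the body, so that epithelium, stroma and immune cells all carried the deletion, and both genotypes were irradiated, with no unirradiated SI analysed here. Mice were 8 to 12 weeks old and matched for age. The question of the comparison was how the transcripts of the irradiated SI differ in the absence of p53.

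The complement system is a cascade of serum and tissue proteins that marks microbes and damaged cells. C1q binds immune complexes and dying cells and starts the classical pathway, which cleaves C4 and C2 into an enzyme that splits C3. Factor B (Cfb) forms the corresponding enzyme of the alternative pathway, factor I (Cfi) inactivates C3b and C4b, and CD55 on the cell surface makes these enzymes fall apart. In tissues, C1q is made mainly by macrophages, whereas C3 and factor B are also made by intestinal epithelium and are known to be induced during inflammation.

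In the p53-/- SI, 7 of the 9 genes (C1qa, C1qb, C1qc, C2, C4b, C3 and Cfi) were at higher levels in both libraries than in either p53+/+ library, and Cfb and Cd55 were at lower levels. Such a separation was common, since among the 16094 genes that entered the test 26.4% had both values of libraries 9 and 10 above both of 7 and 8, and 24.4% had both below. The median log2 fold change (p53-/- against p53+/+) of the 9 genes was 1.16, beside -0.0084 over all genes tested. None of the 9 passed an adjusted p of 0.05 in edgeR (quasi-likelihood test, Benjamini-Hochberg over all genes tested), a test in which 0.298% of genes were called higher and 0.193% lower. At an unadjusted p under 0.05 from the same test, 3 of the 9 were higher (C2, C3 and Cfi; 10% of all genes) and 1 was lower (Cd55; 7.92%). DESeq2, a second count test, called 1 higher (Cfi; 5.05% of all genes) and 1 lower (Cd55; 3.5%). These p-values set the difference between genotypes against a spread between libraries that both tests estimate partly from all genes. With 2 libraries per genotype that spread is poorly known, and the labels do not say that each library came from a separate mouse. In bulk tissue, fewer cells of a type and less RNA per cell cannot be told apart.

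The libraries held 17430246, 15005479, 22173164 and 19811346 counts. Trp53 itself was at 57.7 and 47.1 CPM (read counts relative to the size of the library, with TMM factors that adjust libraries to each other) in p53+/+ and at 19.8 and 22.5 CPM in p53-/- SI, lower in both libraries labelled p53-/- but not absent. Library 7 held less of several stromal and macrophage transcripts than library 8. Library 10 held far more B cell transcripts than library 9, as well as 4.59% of its counts on a ribosomal RNA gene (Rn18s-rs5) beside at most 0.863% in the other 3 libraries. The fold changes of the 9 genes are therefore also given with each library left out.

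All 9 genes had identifiers in the GENCODE M21 annotation of mouse build GRCm38. C2, Cfb, C4b and C3 lie on chromosome 17, the C1q genes on chromosome 4, Cfi on chromosome 3 and Cd55 on chromosome 1. Sequence upstream of the annotated start was at hand for C1qb, C1qc, C3 and Cd55 (RefSeq, GRCm38.p6), and not for C1qa, C4b, Cfb, C2 and Cfi. It is shown for all 4 genes for which it was at hand. The 250 bases before each start are given 5′ to 3′, all from the minus strand, at chr4:136886201-136886450 for C1qb, chr4:136892915-136893164 for C1qc, chr17:57228137-57228386 for C3 and chr1:130462745-130462994 for Cd55. Capitals mark the letters ACTTCCT, which are the core AGGAAGT bound by PU.1, a transcription factor of myeloid and B cells, read on the opposite strand.
C1qb: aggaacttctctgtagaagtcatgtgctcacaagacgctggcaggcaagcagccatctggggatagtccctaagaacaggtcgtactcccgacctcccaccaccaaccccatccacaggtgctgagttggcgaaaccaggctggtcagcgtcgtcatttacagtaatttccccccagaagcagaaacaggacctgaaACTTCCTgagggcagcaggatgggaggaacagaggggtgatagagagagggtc
C1qc: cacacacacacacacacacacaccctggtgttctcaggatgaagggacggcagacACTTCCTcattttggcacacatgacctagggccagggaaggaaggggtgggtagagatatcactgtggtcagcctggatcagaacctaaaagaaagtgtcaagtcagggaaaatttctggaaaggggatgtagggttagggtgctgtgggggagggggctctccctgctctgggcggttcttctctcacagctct
C3: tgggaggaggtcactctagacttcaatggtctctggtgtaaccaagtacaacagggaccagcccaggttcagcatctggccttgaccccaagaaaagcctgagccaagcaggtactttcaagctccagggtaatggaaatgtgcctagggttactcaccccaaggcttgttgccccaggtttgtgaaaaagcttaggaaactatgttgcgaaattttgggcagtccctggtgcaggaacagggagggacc
Cd55: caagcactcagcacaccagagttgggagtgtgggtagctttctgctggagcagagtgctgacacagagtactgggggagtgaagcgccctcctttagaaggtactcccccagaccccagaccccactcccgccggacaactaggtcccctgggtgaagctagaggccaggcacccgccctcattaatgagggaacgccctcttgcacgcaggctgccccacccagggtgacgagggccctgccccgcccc
The PU.1 core was in 2 of these 4 sequences, beginning 53 bases before the start of C1qb and 195 bases before that of C1qc, and in 9.35% of 32851 promoters from 250 bases before to 50 bases after the start, searched on both strands. It was searched for after these sequences had been seen. Letters of 3 other motifs were in none of the 4 promoters, on either strand. These were the interferon motif ISRE core (GAAANNGAA, in 8.56% of all promoters), an NF-kB motif (GGNNTTTCC, 5.82%) and a C/EBP motif (TTGCNNCAA, 2.08%). A match is a match of letters, not a bound site.

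The plot of the 9 genes by library shows the shapes of these differences. They were a graded one in C1q, C4b and C3 with a wide gap between the p53+/+ libraries, a step between genotypes in C2 and Cfi, and lower levels in p53-/- SI in Cd55 and Cfb.

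**Figure D1:**
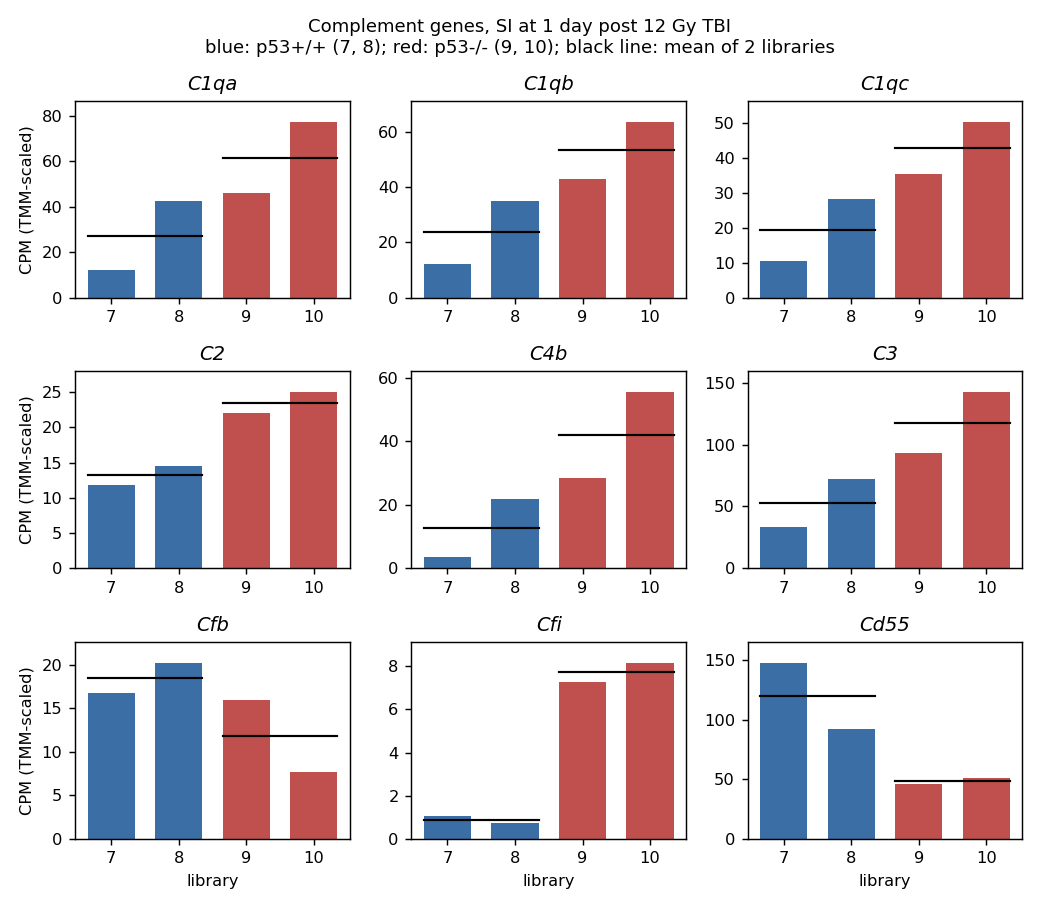
CPM (vertical axis, from 0, TMM-scaled) of each complement gene in p53+/+ libraries 7 and 8 (blue) and p53-/- libraries 9 and 10 (red), with a black line at the mean of the 2 libraries of a genotype. Cfi was at 1.05 and 0.714 CPM in p53+/+ and at 7.28 and 8.16 CPM in p53-/- SI, whereas C4b differed 6.31-fold between the p53+/+ libraries alone.

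C1qa, C1qb and C1qc encode the 3 chains of C1q, the molecule that recognises its targets and starts the classical pathway. C1qa (ENSMUSG00000036887) was at 12.1 and 42.6 CPM in p53+/+ and at 45.9 and 77.3 CPM in p53-/- SI. C1qb (ENSMUSG00000036905) was at 12.3 and 35.0 CPM in p53+/+ and at 43.1 and 63.6 CPM in p53-/- SI. C1qc (ENSMUSG00000036896) was at 10.5 and 28.4 CPM in p53+/+ and at 35.3 and 50.3 CPM in p53-/- SI. The 3 genes kept 1 order over the libraries, lowest in library 7 and highest in library 10, and library 8 lay close below library 9, so that the genotypes did not overlap but the gap between them was smaller than that between the p53+/+ libraries. The log2 fold changes were 1.17 for C1qa (standard error 0.597), 1.17 for C1qb (0.503) and 1.14 for C1qc (0.483), or 2.25-fold, 2.26-fold and 2.21-fold. Their adjusted p-values were 0.384, 0.308 and 0.302 in edgeR (quasi-likelihood test, Benjamini-Hochberg), so that no difference beyond the spread between libraries was found for these genes. The genes kept similar proportions, not corrected for gene length, with C1qc at 0.854, 0.809, 0.819 and 0.791 times the CPM of C1qb, and C1qa at 0.990, 1.22, 1.07 and 1.22 times, in libraries 7 to 10.

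Since C1q is made by macrophages, its sum was set beside 13 macrophage markers. The 3 C1q genes summed to 34.8, 106, 124 and 191 CPM in libraries 7 to 10, and the markers to 249.95, 368, 354 and 695 CPM. C1q was thus 0.139, 0.288, 0.351 and 0.275 times the marker sum, and these ratios overlapped between genotypes. The overlap rested on Lyz2 (lysozyme), which was at 411 CPM in library 10 against 12.4 to 53.2 CPM in the other 3, and with Lyz2 left out of the sum, a choice made after seeing the values, the ratios were 0.147, 0.330, 0.413 and 0.673 and did not overlap. Of the 13 markers, 11 had a positive and 2 a negative log2 fold change, with a median of 0.91. None passed the threshold in edgeR's test or in DESeq2, and 4 were higher at an unadjusted p under 0.05 in edgeR (10% of all genes). Csf1r, the receptor for the macrophage growth factor, was at 11.9, 36.9, 49.3 and 63.4 CPM, the same order of libraries as C1q. Adgre1, which encodes the macrophage antigen F4/80, was at 2.54, 8.24, 8.50 and 6.42 CPM, and its genotypes overlapped. The part of macrophage content in the C1q levels was not tested.

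C4b and C2 encode the components that C1 cleaves to build the C3 convertase. C4b (ENSMUSG00000073418) was at 3.47 and 21.9 CPM in p53+/+ and at 28.3 and 55.4 CPM in p53-/- SI, with its lowest value again in library 7. The log2 fold change of C4b was 1.73 (standard error 0.828, adjusted p = 0.356 in edgeR (quasi-likelihood test, Benjamini-Hochberg)). C4a, a near-identical copy of C4b, had 3, 9, 8 and 15 counts, and reads of the pair could have been split in counting. C4b is known to be made by stromal cells, and 10 stromal markers summed to 246.0, 789, 585 and 586 CPM. The stromal sum was therefore low in library 7 alone, and C4b was 0.0141, 0.0277, 0.0484 and 0.0946 times that sum, higher in both p53-/- libraries.

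C2 differed from C4b in that its p53+/+ libraries lay close together. C2 (ENSMUSG00000024371) was at 11.9 and 14.5 CPM in p53+/+ and at 22.1 and 25.0 CPM in p53-/- SI, a gap wider than the distance between libraries of either genotype. The log2 fold change of C2 was 0.83 (standard error 0.233, 1.78-fold), with an adjusted p of 0.170 in edgeR (quasi-likelihood test, Benjamini-Hochberg). C2 and Cfb are neighbours in the major histocompatibility complex, and an annotated read-through transcript, Gm20547, shares 46.9% of the exon bases of C2 together with an opposite-strand gene (Zbtb12), and 79.5% of those of Cfb. Gm20547 has 0 exon bases outside C2 and Cfb in that annotation, and it was listed at 0 counts in all 4 libraries. No read on the shared bases was thus assigned to Gm20547, and its 0 counts do not measure its expression. Counting that leaves out reads on bases shared by genes would give such zeros. Whether these reads were left out for C2 and Cfb too was not tested.

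C3 (ENSMUSG00000024164) encodes the component on which all pathways converge. C3 was at 33.2 and 72.3 CPM in p53+/+ and at 93.5 and 142 CPM in p53-/- SI. The values had the order of the C1q genes, with no overlap and a gap between genotypes (72.3 to 93.5 CPM) narrower than that between the p53+/+ libraries. C3 had a log2 fold change of 1.16 (standard error 0.413, 2.24-fold), with an adjusted p of 0.239 in edgeR (quasi-likelihood test, Benjamini-Hochberg). In DESeq2 its adjusted p was 0.0573.

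Cfb (ENSMUSG00000090231), the alternative-pathway counterpart of C2, was at 16.8 and 20.2 CPM in p53+/+ and at 16.0 and 7.71 CPM in p53-/- SI. Library 9 lay just below library 7, and only library 10 stood apart. The log2 fold change of Cfb was -0.64 (standard error 0.397, adjusted p = 0.474 in edgeR (quasi-likelihood test, Benjamini-Hochberg)). C2 and Cfb, which lie side by side, thus had log2 fold changes of opposite sign. The difference between these fold changes was not tested.

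Cfi (ENSMUSG00000058952), which encodes the protease that inactivates C3b and C4b, had 17 and 11 counts in p53+/+ and 166 and 164 counts in p53-/- SI. These were 1.05 and 0.714 CPM against 7.28 and 8.16 CPM, low in both p53+/+ libraries and high in both p53-/- libraries, with little spread within a genotype. The mean was 0.883 ± 0.239 CPM in p53+/+ and 7.72 ± 0.624 CPM in p53-/- SI (SD, n = 2). Cfi had the largest log2 fold change of the 9 genes, 3.12 (standard error 0.444, 8.67-fold), with an adjusted p of 0.0596 in edgeR (quasi-likelihood test, Benjamini-Hochberg), just above the threshold, and of 5.18e-06 in DESeq2. Factor I in blood comes mainly from the liver, and 10 liver markers summed to 13.8, 23.7, 18.4 and 32.7 CPM. Of these markers Alb (albumin) and Ahsg had 0 counts in all 4 libraries, Fga had 0 and 0 counts in p53+/+ and 32 and 9 in p53-/- SI, and the 3 that could be tested had positive log2 fold changes, with a median of 0.31 and none past the threshold in edgeR or DESeq2, or at an unadjusted p under 0.05. Their part in the Cfi level was not tested.

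Cd55 (ENSMUSG00000026399), which encodes decay-accelerating factor, an inhibitor anchored in the membrane of epithelial and other cells, was at 148 and 92.4 CPM in p53+/+ and at 45.6 and 50.7 CPM in p53-/- SI. The p53+/+ libraries were high and spread, the p53-/- libraries low and close together, and the genotypes did not overlap. The log2 fold change of Cd55 was -1.32 (standard error 0.259, 2.49-fold lower in p53-/- SI), with an adjusted p of 0.105 in edgeR (quasi-likelihood test, Benjamini-Hochberg) and of 0.000341 in DESeq2. The 10 epithelial markers summed to 25901, 18532, 17346 and 14404 CPM, and all 10 had a negative log2 fold change, with a median of -0.46. None was past the threshold in edgeR's test. At an unadjusted p under 0.05 in edgeR 1 was lower (7.92% of all genes), and 2 were lower in DESeq2 (3.5%). Relative to that sum Cd55 was at 0.00570 and 0.00499 in p53+/+ and at 0.00263 and 0.00352 in p53-/- SI, lower in both p53-/- libraries here too. The ratio of C3 CPM to Cd55 CPM, not corrected for gene length, was 0.225 and 0.782 in p53+/+ and 2.05 and 2.81 in p53-/- SI.

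Levels of different genes are comparable only per length, here as CPM per kilobase of annotated exon (mean ± SD, n = 2). In the p53+/+ SI the order was C1qa (26.3 ± 20.7), Cd55 (24.7 ± 8.04), C1qb (21.7 ± 14.8), C3 (10.3 ± 5.38), C1qc (10.1 ± 6.55), Cfb (6.55 ± 0.869), C2 (3.41 ± 0.484), C4b (2.22 ± 2.28) and Cfi (0.398 ± 0.108). Each neighbour in this order differed from the next by less than the SD of at least 1 of them, except Cfb and C2. In the p53-/- SI the order was C1qa (59.2 ± 21.4), C1qb (49.0 ± 13.3), C3 (22.9 ± 6.71), C1qc (22.2 ± 5.50), Cd55 (9.92 ± 0.737), C4b (7.35 ± 3.36), C2 (6.08 ± 0.526), Cfb (4.19 ± 2.06) and Cfi (3.48 ± 0.281). There the exceptions were C1qb and C3, and C1qc and Cd55. By these means, Cd55 stood above C1qb, C3 and C1qc in p53+/+ and below all of them in p53-/- SI. In library 8, however, Cd55 was at 19.0 and C1qb at 32.2 CPM per kilobase, against 30.4 and 11.3 in library 7. Over their unshared exon bases alone, which would hold if shared bases gave no counts, Cfb was at 32.0 and C2 at 6.43 CPM per kilobase in p53+/+ SI, and at 20.4 and 11.5 in p53-/- SI. By these values Cfb would stand above C1qa in p53+/+ SI and above Cd55 in p53-/- SI. The place of Cfb and C2 in both orders therefore depends on how shared bases were counted.

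The most similar profiles over the 4 libraries, by distance between centred log2(CPM + 0.5) values among 14000 protein-coding genes, were for C3 those of Msc (distance 0.0878), Lilrb4a (0.0953), Arrb2 (0.15), Plcb2 (0.157) and Pde4a (0.157), where the median gene was at 1.6. Lilrb4a encodes an inhibitory receptor of myeloid cells. It was at 0.124 CPM in library 7, where 3 counts make 0.186 CPM, so that its distance depends on the 0.5 added to each CPM. Among the other members, C1qc (0.216), C1qb (0.275) and C1qa (0.497) lay nearest to C3, and Cfb (2.32) and Cd55 (2.82) farthest. Nearest to the mean of the C1q genes were Tyrobp (0.0823), which encodes a signalling adaptor of myeloid cells, Hk3 (0.101), Hic1 (0.105), Pde4b (0.124) and Vsir (0.15), where the median gene was at 1.83. Profiles of 4 libraries share depth and tissue composition, and these distances are a description.

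The C1q, C4b and C3 values moved most with p53+/+ libraries 7 and 8. Without library 7, the log2 fold change was 0.54 for C1qa, 0.94 for C4b and 0.71 for C3, and without library 8 it was 2.34, 3.58 and 1.82. The median over the 9 genes was 0.61 without library 7, 2.02 without library 8, 1.42 without library 9 and 0.87 without library 10. For Cd55 it lay between -1.62 and -0.93 over these refits. Which of the 9 genes passed the threshold changed with the library left out. The calls over all genes changed with it too, so such calls are not read as a result about the 9 genes. The log2 fold change of Cfi stayed between 2.86 and 3.43 and that of C2 between 0.70 and 0.98, whereas that of Cfb ran from -1.27 without library 9 to -0.16 without library 10. No sign changed in any of these refits.

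**Figure D2:**
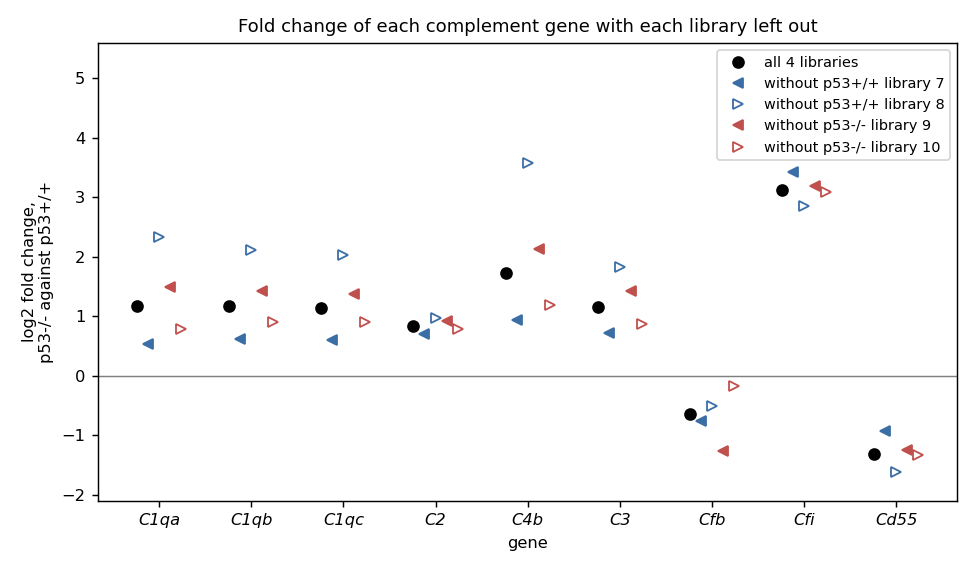
Log2 fold change (vertical axis, p53-/- against p53+/+) of each complement gene with all 4 libraries (black) and with each library left out (triangles, blue for p53+/+ and red for p53-/-). C4b ranged from 0.94 to 3.58, Cfi from 2.86 to 3.43, and every point of a gene lay on the same side of 0.

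The 9 genes were then set in a list of 51 genes of the complement system, of which 38 could be tested. Their log2 fold changes were positive in 28 and negative in 10, with a median of 0.78, and were positive in 49.3% of all genes tested. Of the 42 genes that are not members, 29 were tested, 21 were positive and 8 negative, and the median was 0.57. In edgeR's test 0 genes of the list were called higher and 1 lower (Cfd), beside 0.298% and 0.193% of all genes tested. At an unadjusted p under 0.05 from that test, 11 were higher and 3 lower (10% and 7.92% of all genes). DESeq2 called 7 higher and 3 lower (5.05% and 3.5%). By role, the median was 1.17 in the classical pathway (8 of 8 tested genes positive), 1.96 in receptors (7 of 7), 0.50 in inhibitors (8 of 11), 0.26 in the alternative pathway with C3 (2 of 4), 0.11 in the terminal pathway (2 of 4) and -0.35 in the lectin pathway (1 of 4). With a library left out, the medians of the inhibitors, the terminal, lectin and alternative pathways took either sign, and those of the classical pathway (0.61 to 2.22) and the receptors (1.47 to 3.37) stayed positive.

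**Figure D3:**
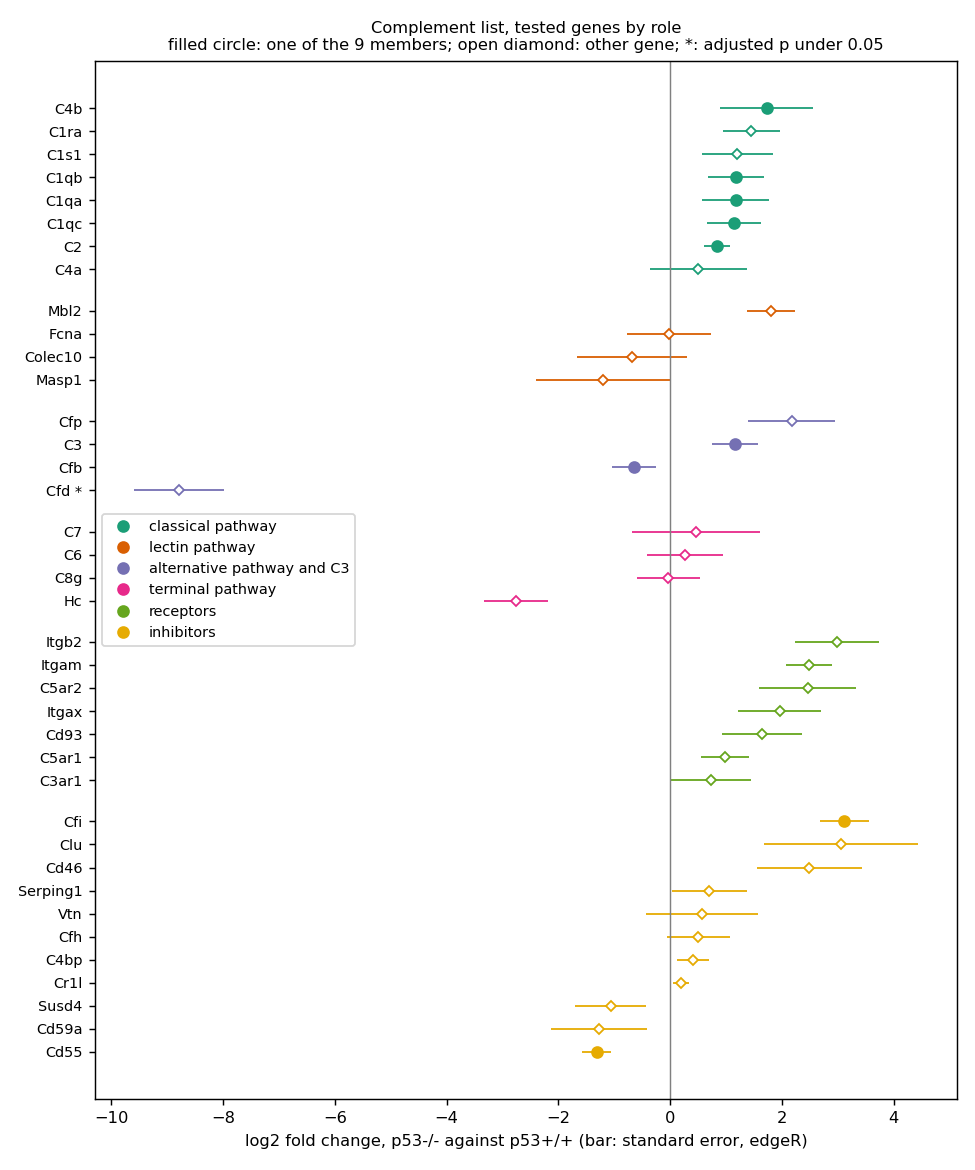
Log2 fold change (horizontal axis, p53-/- against p53+/+) with its standard error from edgeR for the 38 tested complement genes, grouped by role, with filled circles for the members, open diamonds for other genes and an asterisk at an adjusted p under 0.05. All 8 classical-pathway genes and all 7 receptors lie right of 0, and the point of Cfd is a fitted value of a gene at 0 and 1 counts in p53-/- SI.

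In the classical pathway, C1ra, which encodes the protease C1r that C1q activates, was at 3.53 and 9.54 CPM in p53+/+ and at 15.1 and 20.7 CPM in p53-/- SI. Its log2 fold change was 1.45, with an adjusted p of 0.239 in edgeR (quasi-likelihood test, Benjamini-Hochberg), and the libraries had the order of the C1q genes. In the lectin pathway, Mbl2, which encodes a mannose-binding lectin, was at 2.91 and 2.92 CPM in p53+/+ and at 7.32 and 13.1 CPM in p53-/- SI. It had a log2 fold change of 1.81 and an adjusted p of 0.134 in edgeR (quasi-likelihood test, Benjamini-Hochberg), and 0.00816 in DESeq2. Mbl1 and Fcnb of the same pathway had 0 counts in all 4 libraries.

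Cfd, which encodes factor D (adipsin), the protease that cleaves factor B, fell in the p53-/- SI. It had 175 and 244 counts in p53+/+ and 0 and 1 in p53-/- SI, at least 95.0-fold lower with 3 counts set for each p53-/- library (adjusted p = 0.0296 in edgeR (quasi-likelihood test, Benjamini-Hochberg)). In the same edgeR test its adjusted p was 0.0537 when scaled by library size alone and 0.198 without library 10, so that the call was lost in both. Factor D is made by adipocytes, and 10 adipocyte markers summed to 384 and 356 CPM in p53+/+ and to 244 and 236 CPM in p53-/- SI. Much of that sum was Pnpla2, at 176, 194, 169 and 153 CPM in libraries 7 to 10, and Lipe, at 60.8, 51.4, 47.6 and 61.2 CPM. Pnpla2 and Lipe had log2 fold changes of -0.20 and -0.05. Over the list the log2 fold changes were negative in 9 of 9 tested genes, with a median of -2.31. Of them 1 gene (Car3) was called lower in edgeR's test, beside 0.193% of all genes. At an unadjusted p under 0.05 in edgeR 6 were lower (7.92% of all genes), and DESeq2 called 6 lower (3.5%). The part of adipose tissue in the fall of Cfd was not tested. Cfp, which encodes properdin, the stabiliser of the alternative convertase, was at 2.35 and 3.63 CPM in p53+/+ and at 4.65 and 22.3 CPM in p53-/- SI, with library 10 far above library 9 (log2 fold change 2.17, adjusted p = 0.245 in edgeR (quasi-likelihood test, Benjamini-Hochberg), and 0.0374 in DESeq2).

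In the terminal pathway, which builds the membrane attack complex, Hc (the gene for C5) had 30 and 31 counts in p53+/+ and 6 and 6 in p53-/- SI. Its log2 fold change was -2.76, with an adjusted p of 0.111 in edgeR (quasi-likelihood test, Benjamini-Hochberg) and 0.0487 in DESeq2. C8a had 0, 0, 0 and 4 counts, C8b 0, 0, 4 and 0, and C9 0, 1, 7 and 3 in libraries 7 to 10, so that these 3 genes were near the detection limit in both genotypes. C6 had 27, 102, 120 and 94 counts, C7 had 3, 51, 73 and 32, and C8g had 27, 16, 24 and 32, and the genotypes overlapped in each. A count of 0 allows up to 0.131 to 0.195 CPM in these libraries, by 3 counts, for counting error only.

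Among receptors, 7 were tested, and 4 were higher at an unadjusted p under 0.05 in edgeR (10% of all genes). Itgam, the α chain of complement receptor CR3 on myeloid cells, was at 1.49 and 2.21 CPM in p53+/+ and at 11.4 and 9.20 CPM in p53-/- SI. It had the lowest adjusted p of the 7, 0.0804 in edgeR (quasi-likelihood test, Benjamini-Hochberg), at a log2 fold change of 2.48, and 3.87e-05 in DESeq2. Itgb2, the β chain that CR3 shares with other leukocyte integrins, was at 1.36 and 5.97 CPM in p53+/+ and at 19.1 and 38.8 CPM in p53-/- SI (log2 fold change 2.98, adjusted p = 0.145 in edgeR (quasi-likelihood test, Benjamini-Hochberg), and 0.000186 in DESeq2). Itgax, the α chain of CR4, was at 1.79 and 9.54 CPM in p53+/+ and at 18.9 and 25.2 CPM in p53-/- SI (log2 fold change 1.96, adjusted p = 0.260 in the same edgeR test, and 0.0433 in DESeq2). C5ar2, a second receptor for C5a, had 1 and 5 counts in p53+/+ and 21 and 25 in p53-/- SI (log2 fold change 2.46, adjusted p = 0.236 in the same edgeR test, and 0.353 in DESeq2). The integrins were lower in both p53+/+ libraries than in either p53-/- library, but Itgb2 and Itgax differed 4.38-fold and 5.31-fold between the p53+/+ libraries. The genotypes of all 4 genes did not overlap. Of the 7 tested receptors, 6 had both p53-/- values above both p53+/+ values, beside 26.4% of all genes tested. Cr2, the complement receptor of B cells and follicular dendritic cells, had 1 and 0 counts in p53+/+ and 10 and 894 in p53-/- SI, nearly all of them in library 10 (adjusted p = 0.0242 in DESeq2). In the same libraries 10 B cell markers summed to 2.41, 3.83, 29.3 and 558 CPM, 6 follicular dendritic cell markers to 189, 152, 139 and 227 CPM, and 12 T cell markers to 10.7, 24.1, 91.1 and 179 CPM. Most of the follicular dendritic cell sum in libraries 7 to 9 was Ltbr, at 186, 144, 124 and 103 CPM in libraries 7 to 10. Ltbr was the 1 marker of that list with a negative log2 fold change, 5 were positive, and the median was 2.57. Cxcl13, the next most abundant of the list, was at 0.681, 0.714, 1.97 and 76.9 CPM. The B cell marker Pax5 had 0 counts in both p53+/+ libraries. Vsig4, a receptor of resident macrophages for C3b, had 0, 0, 2 and 7 counts. The parts of these cell types in the receptor levels were not tested.

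Among inhibitors other than Cfi and Cd55, Cd46, which encodes a cofactor of factor I, had 1 and 7 counts in p53+/+ and 43 and 21 in p53-/- SI (log2 fold change 2.49, adjusted p = 0.256 in edgeR (quasi-likelihood test, Benjamini-Hochberg)). Cr1l (Crry), the rodent membrane inhibitor with functions of both CD46 and CD55, was at 58.0 and 59.1 CPM in p53+/+ and at 64.8 and 68.9 CPM in p53-/- SI. Its log2 fold change was 0.19 (standard error 0.144, adjusted p = 0.560 in edgeR (quasi-likelihood test, Benjamini-Hochberg)), beside -1.32 for Cd55, and the difference between these fold changes was not tested. Cd55b, a close copy of Cd55, had 2, 4, 3 and 0 counts, so few reads were assigned to it. Clu (clusterin), an inhibitor of the terminal complex, was at 12.8, 32.5, 14.8 and 362 CPM, set apart by library 10. Cr1l and Clu were chosen after their values were seen.

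C3, Cfb, C2 and C4b are textbook targets of interferon-gamma or NF-kB signalling, so 2 lists of induced genes were set beside them. The 20 genes induced by interferon-gamma summed to 392 and 410.1 CPM in p53+/+ and to 1359 and 1696 CPM in p53-/- SI. Of them 20 of 20 had a positive log2 fold change, with a median of 2.15. Past the threshold, 6 were higher in edgeR's test (0.298% of all genes) and 19 in DESeq2 (5.05%). The most abundant, Irf1, Irf8 and Tap1, encode 2 interferon-regulatory factors and a peptide transporter, with log2 fold changes of 1.37, 1.24 and 1.68. The sums of the p53+/+ libraries were close, but single genes were not, since Irf1 was at 135 and 65.5 CPM in libraries 7 and 8 while 10 of the 20 genes were over 2-fold higher in library 8 than in library 7. The 15 genes induced by NF-kB summed to 902, 749, 967 and 1076 CPM, with 12 of 15 positive, a median of 1.25 and 0 called in edgeR's test. At an unadjusted p under 0.05 in edgeR, 10 were higher and 1 lower (10% and 7.92% of all genes). DESeq2 called 5 higher and 1 lower (5.05% and 3.5%). The members of these lists were chosen with results of these data known, and a part of interferon or NF-kB signalling in the complement levels was not tested.

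**Figure D4:**
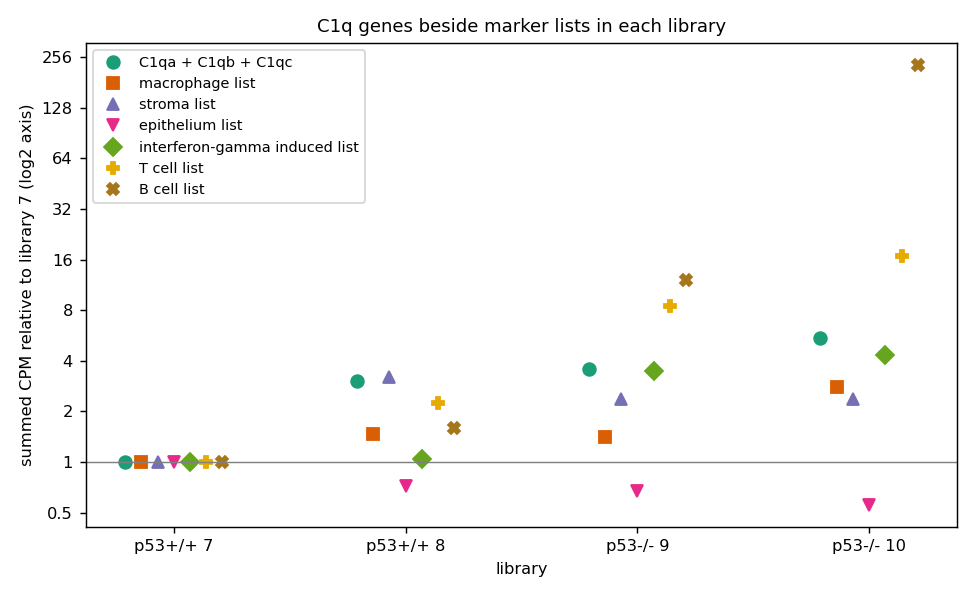
Summed CPM of the C1q genes and of marker and induced lists in each library, divided by the value in library 7 (vertical axis on a log2 scale, libraries along the horizontal axis). Within p53+/+ the C1q sum was at 34.8 CPM in library 7 and at 106 CPM in library 8, and the stroma list at 246.0 and 789 CPM. The interferon-gamma list was at 392 and 410.1 CPM, a sum in which Irf1 and Irf8 were lower and the other genes higher in library 8.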

How the data were processed

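Poly(A) RNA of the SI was sequenced, and the authors deposited the counts of each gene as raw read numbers. The submitters' processing notes name fastp, HISAT2 2.0.5, featureCounts 1.5.0-p3 and DESeq2 1.20.0. The genome build, the annotation and the strand setting are not given in the sources used here. Columns carry the genotype and a number from 7 to 10, not the replicate of the labels, and pair no samples. Within a genotype, libraries differed beyond sampling noise (chi-square per degree of freedom 48.0 for p53+/+ and 69.5 for p53-/-) and were counted separately.

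Counts were scaled by TMM, filtered by filterByExpr and tested two-sided with edgeR 4.0.16 (quasi-likelihood, Benjamini-Hochberg over 16094 genes, threshold 0.05) in R 4.3.3, after the scripts had been tested on simulated data. DESeq2 1.42.0 was an alternative. Exon lengths and overlaps came from GENCODE M21, which held 91.9% of the identifiers. Exons were merged per gene.

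Members and lists were chosen with earlier results of these data known. Beside the members, genes of the complement list were named when past the threshold, at an unadjusted p under 0.05, or when neither library of 1 genotype, and of that genotype only, had more than 3 counts. Other genes named were the most abundant of a list and the nearest profiles. Where genes outside this rule were named (C4a, Cr1l, Clu, Csf1r, Adgre1, Alb, Ahsg, Fga, Car3, Pax5, C6, C7, C8g, Mbl1 and Fcnb), they were chosen after their values were seen. Some items searched or listed are not reported here.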

Additional observations from a re-analysis of the deposited data

How the results depend on the processing

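Every one of 117 log2 fold changes of the 9 complement genes under 13 alternative fits kept its sign, and 20 passed the threshold. The medians of 4 role groups changed sign with a library left out: to -0.02 without library 7 and -0.04 without library 10 for the inhibitors, to -0.02 without library 7 for the alternative pathway with C3, to -0.43 without library 7 for the terminal pathway, and to 1.84 without library 8 for the lectin pathway. Counts of calls moved with the test and the filter, and the cause was not tested. Over all genes, calls higher and lower in p53-/- SI numbered 48 and 31 in edgeR's quasi-likelihood test, 26 and 20 when scaled by library size, 29 and 20 by upper-quartile factors, 813 and 563 in DESeq2, 833 and 462 in edgeR's likelihood ratio test, 1433 and 761 with no filter on low counts, 24 and 18 with at least 10 counts in every library, 4 and 2 at an adjusted p under 0.01, and 238 and 134 under 0.1. Of the 9 genes, DESeq2 and the likelihood ratio test each called 1 higher and 1 lower (Cfi and Cd55), no filter 6 and 1, and the threshold of 0.1 called 1 higher (Cfi). Of the complement list, DESeq2 called 7 higher and 3 lower, the likelihood ratio test 4 and 3, no filter 17 and 4, and the threshold of 0.1 called 2 higher. The only gene of the list called lower, Cfd, was lost (0 called) when scaled by library size, at 0.01 and without library 10, and was removed by the filter of at least 10 counts. With each library left out, calls over all genes ran from 0 to 680 higher and from 0 to 344 lower, those of the 9 genes from 0 to 6 and from 0 to 1, and those of the list from 0 to 13 and from 0 to 3, and the median log2 fold change ran from 0.61 to 2.02 for the 9 genes and from 0.53 to 2.05 for the list. A genotype left with 1 library was assumed to vary like the other. Leaving out Rn18s-rs5 was chosen after seeing the data. No paired analysis was possible because the columns carry the numbers 7 to 10 and not the replicate numbers of the labels. Depth limits the genes near 3 counts, and 13 genes of the complement list had too few counts to be tested.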
